A study of Rattus norvegicus with 16 samples.

Results

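In all, 4 genes of proximal tubule function and 5 genes of kidney injury were described across cultured rat kidney cells. They were picked by name, as the rows of the count table whose gene symbol was Lrp2, Cubn, Aqp1, Slc34a1, Havcr1, Lcn2, Spp1, Clu or Vcam1, and these were 9 of the 32623 genes in the table. NRK-52E is an established epithelial line from rat kidney and NRK-49F an established fibroblast line from rat kidney. The lines were grown together, separated by a porous filter, so that each library holds the poly(A) RNA of one line that shared medium with the other, and no line cultured alone was analysed here. The 4 groups, with 4 libraries each, were NRK-52E at pH 7.4, NRK-52E at pH 6.0, NRK-49F at pH 7.4 and NRK-49F at pH 6.0. All groups spent 24 h without serum and then 48 h in medium of the given pH, which the sample labels shorten to pH 7 and pH 6. The comparisons ask what an acidic medium does to each cell type. Total counts were 17760185 to 20612657 in NRK-52E at pH 7.4, 16844811 to 23856187 in NRK-52E at pH 6.0, 17518187 to 27607214 in NRK-49F at pH 7.4 and 16201084 to 34784862 in NRK-49F at pH 6.0.

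The proximal tubule takes back most of what the glomerulus filters. Megalin and cubilin, large receptors of the brush border, bind filtered proteins for endocytosis, aquaporin-1 lets water through both faces of the cell, and a sodium-coupled carrier returns phosphate. An injured tubule is known to lower such genes and to raise others, whose products (KIM-1, NGAL, osteopontin, clusterin and VCAM-1) are used as signs of kidney damage. Levels are given as FPM, the fragments of a gene relative to the size of its library, scaled over the 16 libraries with TMM, and are compared between groups of the same gene. FPM is not corrected for gene length, so where a marker is said to have the highest FPM of its list, that orders fragments and not molecules.

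The lines were first compared with the markers of their labelled origin. In NRK-52E, 17 of 43 genes of proximal tubule transport and metabolism reached a mean of 1 FPM at either pH, and 8 had no count in any of its 8 libraries, among them the phosphate carrier Slc34a1, the amino acid carrier Slc6a19 and the transcription factor Hnf4a. The scaffold protein gene Slc9a3r1 had the highest FPM of the list in this line, with a mean of 337.6 FPM at pH 7.4 against 125.0 FPM at pH 6.0. In NRK-49F 14 of the 43 reached 1 FPM and 10 had no count, and the list summed to 414 and 634 FPM at pH 7.4 and 6.0, beside 492 and 231 FPM in NRK-52E. Of 17 epithelial markers, 6 reached 1 FPM in NRK-52E but only 3 did so in NRK-49F. The keratin gene Krt8 had the highest FPM of them in both lines, with 430.4 ± 32.03 FPM in NRK-52E and 848 ± 70.4 FPM in NRK-49F at pH 7.4 (SD, n = 4). The tight junction gene Ocln stood at 41.1 FPM in NRK-52E and 0 FPM in NRK-49F at pH 7.4. Krt7 (36.7 against 0.463 FPM), Tjp3 (17.3 against 1.32 FPM) and Cdh1 (1.62 against 0 FPM) were also higher in NRK-52E at pH 7.4. Like Krt8 at pH 7.4, Cldn1 (0.0205 against 0.955 FPM) and Pax8 (0.0102 against 0.771 FPM) were lower in NRK-52E. At pH 6.0 the order for Krt8 was reversed, with 315.5 FPM in NRK-52E and 206 FPM in NRK-49F. Krt19 had 2.49 FPM in NRK-52E and 2.27 FPM in NRK-49F at pH 7.4, a difference that was not called. The epithelial adhesion gene Epcam was near 0 in both lines at pH 7.4, at 0.0221 FPM in NRK-52E, the line labelled epithelial, and 0.0286 FPM in NRK-49F. Of 14 fibroblast markers, 7 reached 1 FPM in NRK-52E and 10 did in NRK-49F; the highest FPM at pH 7.4 was that of the collagen gene Col3a1 in NRK-52E (6221) and of the collagen gene Col1a1 in NRK-49F (6205). As a share of the NRK-49F level at pH 7.4, NRK-52E held 0.0158% for Prrx1, 0.0731% for Pdgfra, 0.380% for Col1a1, 0.412% for Lum, 0.969% for Fbn1, 1.49% for Twist1, 37.7% for Postn, 53.2% for Pdgfrb, 108.1% for Col5a1 and 1358% for Col3a1. Thy1 had no count in either line, and Fap, Tcf21 and Dcn stayed below 1 FPM in both.

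Megalin, encoded by Lrp2 (ENSRNOG00000056184, chromosome 3), was found at a low level in NRK-52E at pH 7.4 and almost nowhere else. The counts were 16, 10, 24 and 8 in the 4 libraries of NRK-52E at pH 7.4, which is 0.750, 0.410, 0.995 and 0.381 FPM. At pH 6.0 the same line gave counts of 0, 0, 0 and 1. NRK-49F had 1 count in its pH 7.4 libraries together and 2 in its pH 6.0 libraries. All 4 libraries of NRK-52E at pH 7.4 thus lay above all 12 others, and the 3 remaining groups overlapped. The pooled counts of NRK-52E, 58 against 1, gave a ratio of 53.8 between pH 7.4 and pH 6.0, with an exact 95% counting interval of 9.28 to 2160. Without the library at pH 6.0 that holds the single count, the ratio was at least 13.4 against a floor of 3 counts. The gene did not pass the filter on low counts, and a two-sided permutation test of log2(FPM + 1), computed exactly, gave p = 0.0286 (n = 4 against 4), the smallest value this design allows and 1 of 15 such tests made on the genes described. These intervals cover counting error only, and in bulk RNA fewer cells of a kind and less RNA per cell cannot be told apart.

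Cubilin, encoded by Cubn (ENSRNOG00000029047, chromosome 17), was highest in NRK-49F at pH 7.4. Its mean was 2.54 ± 0.654 FPM there, 1.40 ± 0.713 FPM in NRK-49F at pH 6.0, 1.001 ± 0.422 FPM in NRK-52E at pH 6.0 and 0.804 ± 0.114 FPM in NRK-52E at pH 7.4 (SD, n = 4). Each neighbouring pair in this order overlapped. Neither pH difference was called in edgeR's quasi-likelihood test, with a log2 difference of 0.30 for NRK-52E (SE 0.32, adjusted p = 0.415) and -0.87 for NRK-49F (SE 0.36, adjusted p = 0.0555). Single libraries changed this: the NRK-52E difference was -0.035 without replicate 2 at pH 6.0, and the NRK-49F difference was -1.31 and was called without replicate 4 at pH 6.0 (edgeR adjusted p = 0.00654). The line difference at pH 7.4 was called, with NRK-52E lower by a log2 difference of -1.66 (SE 0.36, edgeR adjusted p = 0.000436). At pH 6.0 the line difference was -0.49 and was not called (SE 0.36, edgeR adjusted p = 0.225).

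Aquaporin-1, encoded by Aqp1 (ENSRNOG00000011648, chromosome 4), was measured in every library. In NRK-52E libraries gave 41.8, 38.9, 24.7 and 32.03 FPM at pH 7.4 and at 24.8, 26.7, 22.4 and 31.7 FPM at pH 6.0. In NRK-49F it stood at 26.1, 22.5, 16.7 and 21.98 FPM at pH 7.4 and at 24.7, 28.2, 44.0 and 69.4 FPM at pH 6.0. The pH groups overlapped in both lines, and replicates 3 and 4 of NRK-49F at pH 6.0 were the highest of the 16 libraries. From the highest mean down, the order was NRK-49F at pH 6.0, NRK-52E at pH 7.4, NRK-52E at pH 6.0 and NRK-49F at pH 7.4, and each pair of neighbours overlapped. The log2 difference at pH 6.0 was -0.40 (SE 0.17, edgeR adjusted p = 0.0623) in NRK-52E and 0.92 (SE 0.27, edgeR adjusted p = 0.0128) in NRK-49F, and neither was called. The difference between these effects, NRK-52E minus NRK-49F, was called at a log2 value of -1.33 (SE 0.36, edgeR adjusted p = 0.0049). The count table's column names carry a second number of unknown meaning, shared by 2 libraries of each pH within a line, and Aqp1 differed between them: the log2 difference in NRK-49F was 0.12 among the libraries numbered 20 and 1.53 among those numbered 21, and in NRK-52E it was -0.69 for number 21 and -0.08 for number 22. The call of the difference between the pH effects was lost without replicate 1 (-1.23) or 2 (-1.27) of NRK-52E at pH 7.4 or replicate 3 of NRK-52E at pH 6.0 (-1.25). It was also lost without replicate 3 of NRK-49F at pH 7.4 (-1.22) or replicate 4 of NRK-49F at pH 6.0 (-0.97). The part of the second number in this result was not tested.

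Slc34a1 (ENSRNOG00000015262, chromosome 17), the phosphate carrier of the proximal tubule brush border, had no count in the 8 libraries of NRK-52E. In NRK-49F the counts were 8, 19, 2 and 8 at pH 7.4 and 7, 7, 15 and 16 at pH 6.0. The low level was thus on the fibroblast side, and its pH groups overlapped (exact two-sided permutation p = 0.971, n = 4 against 4). Against a floor of 3 counts over the NRK-52E group, NRK-49F was at least 14.4-fold higher at pH 7.4 and at least 12.6-fold higher at pH 6.0. Replicate 2 of NRK-49F at pH 7.4 holds 19 of 37 counts, and without it the bound at pH 7.4 was 9.41-fold; with any other library left out, a choice made after seeing the data, the bounds ran from 10.54 to 16.9 at pH 7.4 and from 8.94 to 13.7 at pH 6.0.

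**Figure D1:**
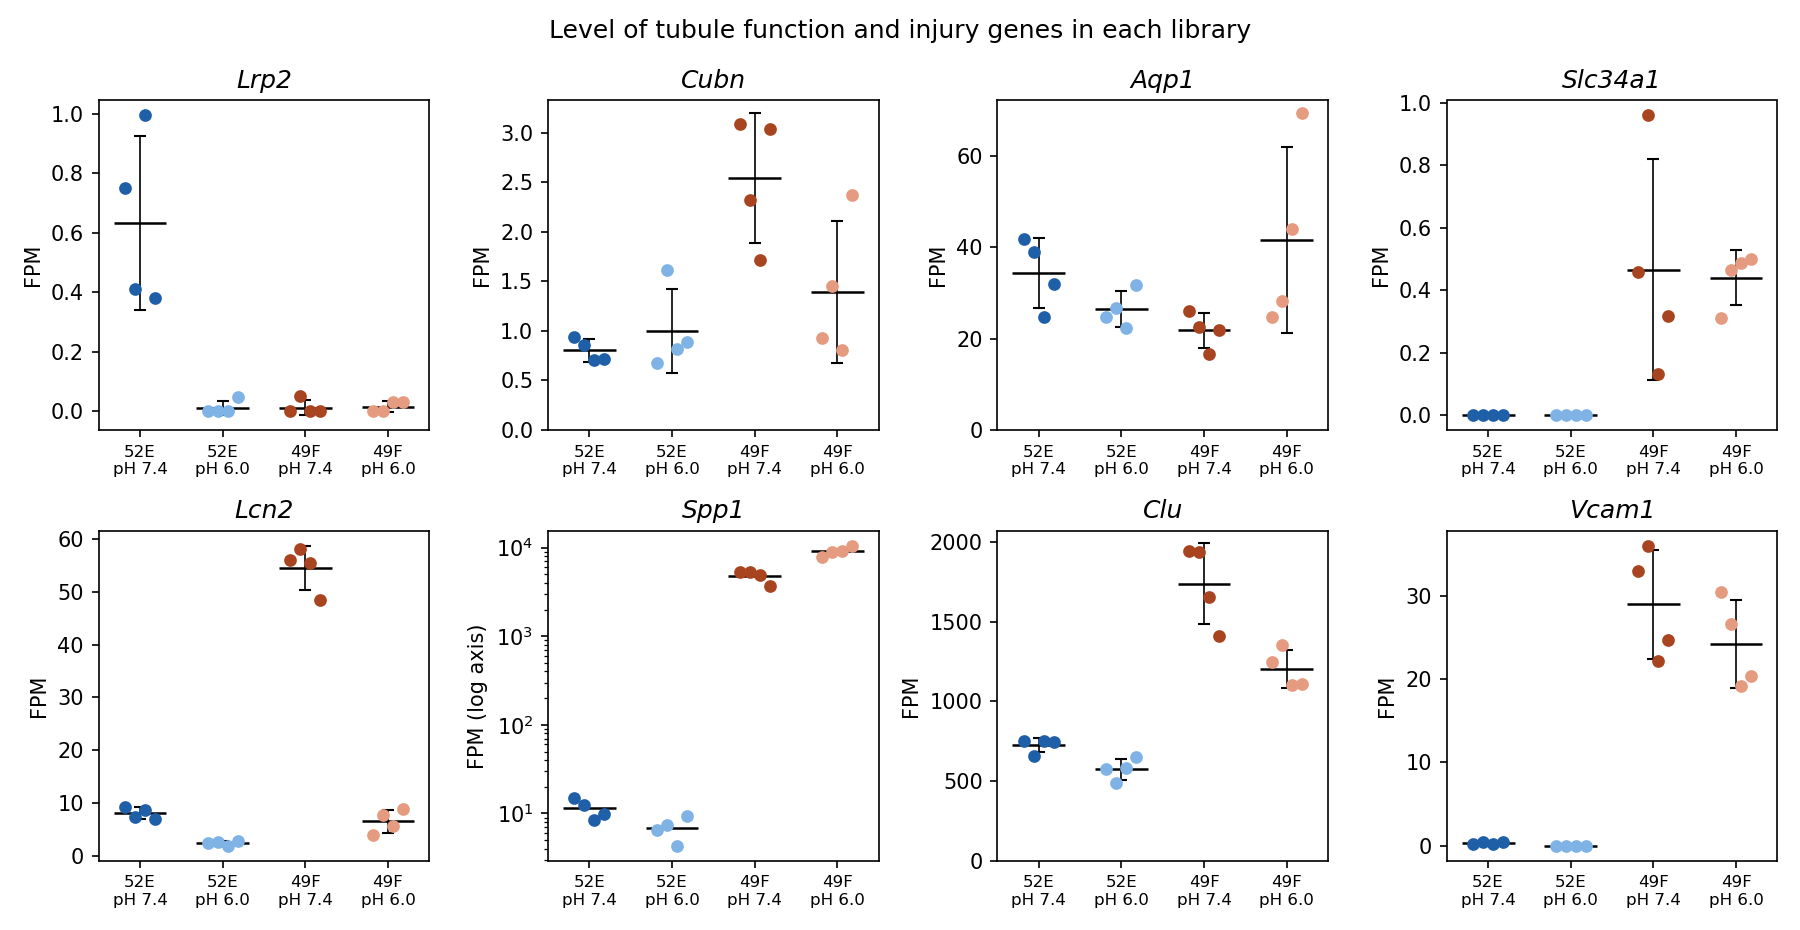
Level in FPM (vertical axis, logarithmic for Spp1) of 8 genes in the 4 groups (horizontal axis); points are libraries, the horizontal line is the group mean and the bars, left out for Spp1, are the SD (n = 4). Lrp2 lies above 0.38 FPM in NRK-52E at pH 7.4 and near 0 elsewhere, and Lcn2 is lower at pH 6.0 than at pH 7.4 in both lines.

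Of the injury genes, Havcr1 (ENSRNOG00000007243, chromosome 10), which encodes the phosphatidylserine receptor KIM-1, had 0 counts in all 16 libraries. A count of 0 allows up to 0.0330 FPM in NRK-52E at pH 7.4 and 0.0356 FPM at pH 6.0, taking 3 counts over a group as the limit. The gene was therefore not detectable at this depth.

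Lcn2 (ENSRNOG00000013973, chromosome 3) encodes lipocalin-2, or NGAL, which binds the iron carriers of bacteria, and it was lower at pH 6.0 in both lines. In NRK-52E the values were 9.23, 7.29, 8.75 and 6.95 FPM at pH 7.4 and 2.38, 2.517, 1.93 and 2.77 FPM at pH 6.0. In NRK-49F they were 56.0, 58.2, 55.4 and 48.5 FPM at pH 7.4 and 3.94, 7.69, 5.59 and 8.88 FPM at pH 6.0. The pH groups did not overlap in either line, and NRK-49F at pH 7.4 stood above every other library. NRK-52E at pH 7.4 and NRK-49F at pH 6.0, the neighbours in the middle of the order, did overlap. Lcn2 fell by 1.76 on the log2 scale in NRK-52E (SE 0.19, edgeR adjusted p = 1.41e-05) and fell by 3.08 in NRK-49F (SE 0.21, edgeR adjusted p = 4.03e-07). The fall was larger in NRK-49F, with a log2 difference between the effects of 1.30 (SE 0.28, edgeR adjusted p = 0.00103). Among the NRK-52E libraries numbered 22 alone, 2 against 2, the log2 difference was -1.76 with an edgeR adjusted p of 0.0107, which did not pass the threshold.

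Spp1 (ENSRNOG00000043451, chromosome 14) encodes osteopontin, a secreted phosphoprotein that binds integrins and CD44, and its pH effects differed between the lines. In NRK-49F it stood at 5351, 5234, 4896 and 3673 FPM at pH 7.4 and at 7760, 8870, 9195 and 10420 FPM at pH 6.0. In NRK-52E it stood at 15.1, 12.3, 8.50 and 9.85 FPM at pH 7.4 and at 6.48, 7.46, 4.34 and 9.26 FPM at pH 6.0. The NRK-49F groups did not overlap, and those of NRK-52E did. It took 0.734 to 0.958% of a library's counts in NRK-49F at pH 6.0. It rose by a log2 value of 0.90 in NRK-49F (SE 0.14, edgeR adjusted p = 0.000213). In NRK-52E the log2 difference was -0.75 (SE 0.25, edgeR adjusted p = 0.0218) and was not called, and the 2 effects differed by -1.67 (SE 0.29, edgeR adjusted p = 0.000106). Scaled by library totals alone, the NRK-52E difference was -0.95 and was called. NRK-52E held 0.239% of the NRK-49F level at pH 7.4 and 0.0760% at pH 6.0. Of the fibroblast markers, Prrx1 and Pdgfra had a smaller share at pH 7.4, and Prrx1, Lum (0% each) and Pdgfra (0.0153%) at pH 6.0. There Fbn1 had 0.148%, Col1a1 0.218% and Twist1, Postn, Pdgfrb, Col5a1 and Col3a1 more. The paper states that the filter's pore size keeps fibroblasts out of the upper compartment. It adds that the underside was rinsed and inspected, with a very small chance that a few fibroblasts adhered. The part of fibroblast RNA in the NRK-52E values was not tested.

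Clu (ENSRNOG00000016460, chromosome 15) encodes clusterin, a secreted chaperone. In NRK-49F it stood at 1944, 1938, 1657 and 1411 FPM at pH 7.4 and at 1245, 1351, 1099 and 1110 FPM at pH 6.0. In NRK-52E it stood at 748, 658, 751 and 742 FPM at pH 7.4 and at 573, 489, 580 and 650.0 FPM at pH 6.0. None of the neighbouring groups overlapped, in the order NRK-49F at pH 7.4, NRK-49F at pH 6.0, NRK-52E at pH 7.4 and NRK-52E at pH 6.0. Clu fell by 0.55 on the log2 scale in NRK-49F (SE 0.13, edgeR adjusted p = 0.00379), a call that was lost without replicate 1 or 2 at pH 7.4 or replicate 3 or 4 at pH 6.0, where values ran from -0.50 to -0.48. In NRK-52E the log2 difference was -0.36 (SE 0.11, edgeR adjusted p = 0.0128), short of the threshold in edgeR and past it in DESeq2 (adjusted p = 0.00443). The difference between the effects was 0.18 (SE 0.17, edgeR adjusted p = 0.401), and it was -0.07 with library totals alone.

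Vcam1 (ENSRNOG00000014333, chromosome 2) encodes an adhesion receptor that binds integrin alpha-4 on leukocytes. In NRK-49F it stood at 33.0, 36.0, 22.2 and 24.7 FPM at pH 7.4 and at 30.5, 26.7, 19.2 and 20.4 FPM at pH 6.0, with overlapping groups and no call (log2 difference -0.28, SE 0.19, edgeR adjusted p = 0.234). In NRK-52E the counts were 5, 11, 5 and 9 at pH 7.4 and 0 in all 4 libraries at pH 6.0. The few fragments of NRK-52E were thus confined to pH 7.4, and the level at pH 6.0 was at least 9.27-fold lower against a floor of 3 counts over the group, or at least 6.59-fold with any 1 library left out (exact two-sided permutation p = 0.0286 for log2(FPM + 1), n = 4 against 4, the smallest possible). NRK-49F was 87.8-fold above NRK-52E at pH 7.4 (exact 95% counting interval 61.3 to 130.4) and at least 653-fold above it at pH 6.0. At pH 7.4 the NRK-52E level was 1.14% of that in NRK-49F, a larger share than those of Prrx1, Pdgfra, Col1a1, Lum and Fbn1 and a smaller one than those of Twist1, Postn, Pdgfrb, Col5a1 and Col3a1. The paper's steps to keep the lines apart, given above for Spp1, apply here too, and the part of fibroblast RNA in these few counts was not tested.

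Counted together, 5 of the 9 genes were tested in NRK-52E and 1 was called, lower, where 56.7% of 13735 tested genes were called, 28.2% higher and 28.5% lower. In NRK-49F 6 were tested and 3 were called, 1 higher and 2 lower, against 37.8% of 13339, with 18.4% higher and 19.4% lower. The difference between the pH effects was called for 4 of 6, against 36.9% of 14679; 1 of the 4 is Vcam1, which was not tested in NRK-52E and had no count there at pH 6.0, so its call rests on an empty group. Between the lines 5 of 6 were called at pH 7.4, against 59.8%, and 4 of 6 at pH 6.0, against 63.2%, each lower in NRK-52E. Vcam1 is also 1 of the 4 at pH 6.0, and its call there rests on the same empty group. A gene passes the filter through the group where it is high, so these counts describe the genes that passed and not all 9. With library totals alone, the share of called genes that were higher went from 49.7% to 37.6% in NRK-52E, from 52.4% to 33.8% for the difference between effects and from 46.7% to 65.9% between the lines at pH 7.4. A call needed a Benjamini-Hochberg adjusted p below 0.01 in both edgeR and DESeq2, and since the labels do not say that libraries came from separate cultures, p-values measure only the spread between these libraries.

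**Figure D2:**
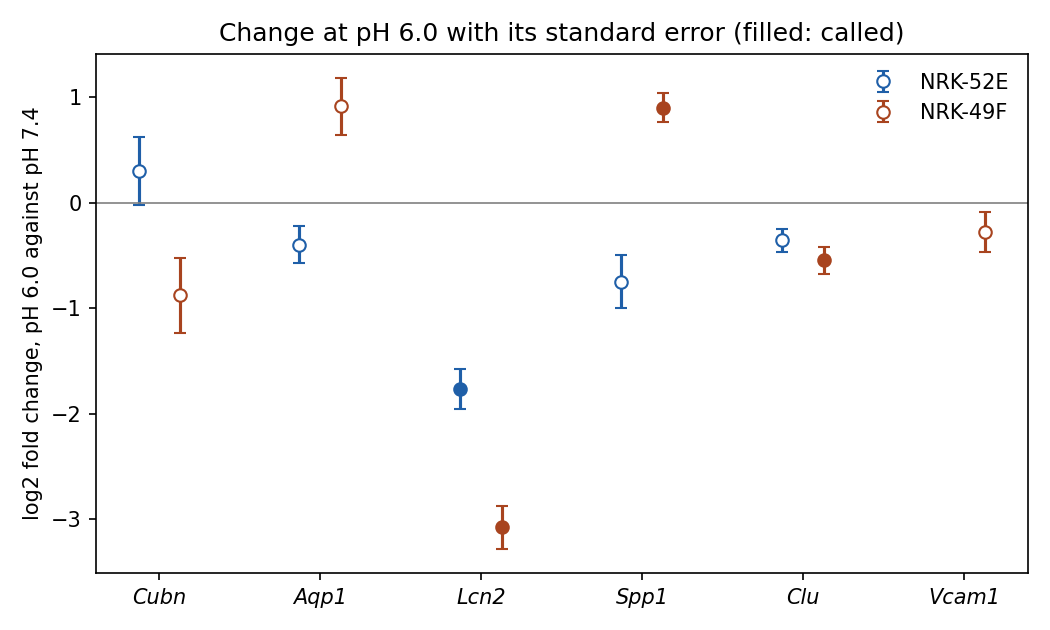
Log2 fold change at pH 6.0 against pH 7.4 (vertical axis) of the genes that passed the filter (horizontal axis), in NRK-52E (blue) and NRK-49F (red); bars are the standard error from edgeR, and filled points were called. Lcn2 is at -1.76 and -3.08, and Spp1 is at -0.75 for NRK-52E and 0.90 for NRK-49F.

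The list of 43 genes of proximal tubule transport and metabolism includes the 4 function genes described above. In NRK-52E 18 were tested, among them Cubn and Aqp1, and 11 were called, 2 higher and 9 lower, beside the 56.7% of all tested genes; the median log2 difference was -0.97, against 0.0014 over all tested genes. Other marker lists moved at pH 6.0 in this line as well: 6 of 6 tested epithelial markers were called, 1 higher and 5 lower (median log2 difference -1.44), and 6 of 8 tested fibroblast markers were called, all lower (-1.40). In NRK-49F 2 of 5 epithelial markers (-0.996) and 3 of 10 fibroblast markers (-0.29) were called, all lower; their part in the results above was not tested. In NRK-52E the brush border peptidase gene Anpep fell by 4.55 on the log2 scale and the dipeptidase gene Dpep1 fell by 3.94. Cyp27b1, which makes active vitamin D, rose in NRK-52E from 8.35 to 27.2 FPM. Gatm, an enzyme of creatine synthesis, rose in NRK-52E from 6.88 to 15.01 FPM (log2 value 1.11). Among the NRK-52E libraries numbered 22 alone, 2 against 2, the Gatm value was 1.24 without a call. In NRK-49F 15 were tested and 9 were called, 4 higher and 5 lower, beside 37.8% of all; the median was -0.66 against -0.0029 over all. The called genes there were split 5 and 5 with no filter. They were 3 higher and 6 lower among libraries numbered 20 alone, and 4 higher and 3 lower among those numbered 21 alone. Dpep1 fell by 4.08 there and Anpep fell by 1.47. The glutathione-cleaving enzyme gene Ggt1 rose from 112 to 413 FPM and Cyp27b1 rose from 1.19 to 5.24 FPM.

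Genes of the endocytic route used by megalin and cubilin were measured in both lines. In each, 18 of 20 were tested. In NRK-52E 9 were called (56.7% over all), 3 higher and 6 lower, and in NRK-49F 8 were called (37.8% over all), 3 higher and 5 lower, with median log2 differences of -0.16 and -0.17 beside 0.0014 and -0.0029 over all. Lrpap1, the chaperone that escorts megalin through the secretory route, fell by 1.29 in NRK-52E and by 0.71 in NRK-49F. The phosphoinositide phosphatase gene Ocrl fell in NRK-52E from a mean of 15.7 to 6.79 FPM but rose in NRK-49F from 19.8 to 30.4 FPM, and the log2 difference between these effects was -1.84 (edgeR adjusted p = 3.31e-06). With 2 libraries against 2, the Ocrl rise was not called for either second number (0.46 for number 20 and 0.77 for number 21), nor was the Ocrl fall for number 22 (-1.30). Its relative Inpp5b rose in both lines, with log2 values of 0.96 and 0.68. Among the NRK-49F libraries numbered 21 alone, 2 against 2, Lrpap1 (-0.64), Inpp5b (0.80) and Dab2 (0.84) were not called, at log2 values near or above those of all 8 libraries. Dab2, an adaptor that binds the tail of megalin, fell by 0.97 in NRK-52E (edgeR adjusted p = 9.59e-05) and rose from 106 to 167 FPM in NRK-49F, with a log2 difference between the effects of -1.63 (edgeR adjusted p = 1.39e-05). The rise was a call lost without replicate 1 at pH 6.0 (log2 value 0.62) or replicate 4 at pH 6.0 (0.59).

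Among 34 genes of kidney tubule injury, among them the injury genes above, 21 were tested in NRK-52E and 14 were called (56.7% over all), 6 higher and 8 lower, with a median log2 difference of -0.36 (0.0014 over all). Among the libraries numbered 22 alone the called genes were 5 higher and 1 lower. In NRK-49F 26 were tested and 19 were called (37.8% over all), 4 higher and 15 lower, with a median of -0.61 (-0.0029 over all). Besides Lcn2, the genes that fell included Itgb8 in NRK-52E (log2 value -2.83) and Krt8 in NRK-49F (-2.06). The cell cycle inhibitor gene Cdkn1a rose from 29.1 ± 5.04 to 1411 ± 335 FPM in NRK-52E (SD, n = 4, log2 value 5.58, SE 0.21). Its log2 difference in NRK-49F was 0.40 and was not called, and the effects differed by 5.17 (edgeR adjusted p = 6.26e-11). Sox9, a transcription factor of regenerating tubules, rose from 17.2 to 70.7 FPM in NRK-49F and had a mean of 0 FPM in NRK-52E at either pH. The neutrophil attractant gene Cxcl1 rose in NRK-52E by a log2 value of 2.12, with overlapping groups and no call among the libraries numbered 22 alone (1.48), and fell by 1.58 in NRK-49F, and the effects differed by 3.68 (edgeR adjusted p = 1.96e-05).

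Receptors and partners of the injury proteins made a list of 18 genes, and 15 were tested in each line. In NRK-52E 11 were called (56.7% over all), 5 higher and 6 lower, with a median log2 difference of -0.08 (0.0014 over all) that was 0.11 among the libraries numbered 21 alone. In NRK-49F 6 were called (37.8% over all), 4 higher and 2 lower, with a median of 0.13 (-0.0029 over all). Cd44, a receptor of hyaluronan and osteopontin, had 4.17 FPM at pH 7.4 and rose to 18.5 FPM in NRK-52E, and in NRK-49F it rose from 244 to 483 FPM. Lrp8, a receptor of the LDL receptor family that binds clusterin, went up in NRK-52E from a mean of 4.13 to 42.7 FPM, and in NRK-49F from 11.6 to 80.4 FPM, with log2 values of 3.34 and 2.78. Slc22a17, a receptor of lipocalin-2, fell by 0.82 in NRK-52E and fell by 1.06 in NRK-49F, and the difference between these effects was not called.

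Lcn2 and Vcam1 are known targets of NF-kB. Of 25 genes of that pathway, 19 were tested in NRK-52E and 12 were called (56.7% over all), 8 higher and 4 lower. The median log2 difference was 0.14 (0.0014 over all), and it was -0.07 with library totals alone. In NRK-49F 22 were tested and 12 were called (37.8% over all), 1 higher and 11 lower, with a median of -0.53 (-0.0029 over all). The feedback inhibitor gene Tnfaip3 fell by 1.72 in NRK-52E and fell by 0.99 in NRK-49F, a difference between effects that was not called. In NRK-49F the chemokine gene Ccl2 fell by 1.38 and Nfkbiz fell by 1.22; Nfkbiz was not called in NRK-52E, and its call in NRK-49F was lost among the libraries numbered 21 alone (-0.89). The kinase subunit gene Chuk rose in both, with log2 values of 1.28 and 0.89.

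Genes with a similar log2(FPM + 1) across the 16 libraries were looked up for the 6 members that reached a mean of 1 FPM in a group, among 9770 named genes with a mean of at least 10 FPM in a group; a difference between the lines adds to such an r. For Lcn2 these were Cxcl13 and Map3k12, each with a Pearson r of 0.978, and Cxcl13, a chemokine gene, had means of 5.71 and 0.251 FPM in NRK-52E and 40.1 and 2.90 FPM in NRK-49F at pH 7.4 and 6.0. For Spp1 they were Tnip3 and Htra1 (r of 0.998 each). Among these, Clu was nearest to Pmp22 (r = 0.979) and Rgl1 (0.978), and Vcam1 to Csf1 (0.997) and Ltbp2 (0.997). Aqp1 and Cubn had weaker matches, Arl6ip6 (0.834) and Cd59 (0.812) for Aqp1 and Carns1 (0.881) and Nlrx1 (0.870) for Cubn.

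Promoter sequences of RefSeq, build GRCr8, were matched by symbol for 8 of the 9 genes, all but Clu, and the 250 bases before the start were searched on both strands. The letters were TATAAA (in 12.9% of 33469 promoters), TGANTCA of AP-1 (6.34%), TGACNNNGC of the antioxidant response element (10.1%), GGGNNTTCC of NF-kB (5.09%) and GTTAAT of HNF1 (6.45%). These 4 are shown, because Lcn2 fell in both lines, Spp1 and Aqp1 had effects that differed between the lines, and Vcam1 held the one NF-kB match; capitals mark matches. Lcn2 lies at chr3:36081781-36082030 on the minus strand, Spp1 at chr14:5619805-5620054 on the minus strand, Aqp1 at chr4:85812534-85812783 on the plus strand and Vcam1 at chr2:206742784-206743033 on the minus strand.
Lcn2: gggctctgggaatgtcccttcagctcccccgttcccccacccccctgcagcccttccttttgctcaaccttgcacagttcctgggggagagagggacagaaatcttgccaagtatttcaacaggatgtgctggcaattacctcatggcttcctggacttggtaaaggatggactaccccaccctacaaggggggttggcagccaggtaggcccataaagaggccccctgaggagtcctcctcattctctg
Spp1: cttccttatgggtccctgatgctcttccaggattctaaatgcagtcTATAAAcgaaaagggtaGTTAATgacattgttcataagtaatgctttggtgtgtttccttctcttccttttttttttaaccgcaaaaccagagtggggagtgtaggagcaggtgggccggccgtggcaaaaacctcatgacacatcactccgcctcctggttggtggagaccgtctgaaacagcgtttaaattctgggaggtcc
Aqp1: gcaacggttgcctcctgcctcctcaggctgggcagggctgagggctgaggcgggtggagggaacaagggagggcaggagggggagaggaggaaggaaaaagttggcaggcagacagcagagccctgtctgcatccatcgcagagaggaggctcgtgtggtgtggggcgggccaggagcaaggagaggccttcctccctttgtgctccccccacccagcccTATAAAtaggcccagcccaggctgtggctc
Vcam1: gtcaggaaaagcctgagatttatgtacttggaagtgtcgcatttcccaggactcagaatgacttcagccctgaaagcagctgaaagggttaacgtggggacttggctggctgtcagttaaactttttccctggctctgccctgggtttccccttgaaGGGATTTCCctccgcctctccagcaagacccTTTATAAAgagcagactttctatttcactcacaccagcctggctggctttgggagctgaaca
Lcn2 held none of these 5 letter patterns in this window. Nor did Lrp2 and Cubn, while Slc34a1 held TATAAA 43 bases and GTTAAT 120 and 147 bases before the start, and Havcr1 held GTTAAT 151 bases before it. Spp1 held TATAAA 204 bases and GTTAAT 187 bases before the start, and Aqp1 held TATAAA 30 bases before it. Vcam1 held GGGATTTCC 93 bases before the start, and its TATAAA matches on the 2 strands overlapped. A match describes these letters only. Sites spelled in other letters, those of NF-kB among them, were not searched for, so a promoter without a match may still hold one.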

How the data were processed

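Poly(A) RNA of 16 libraries was sequenced, and the authors deposited whole-number counts of fragments per gene, not normalized. The study's methods name tophat2 as the aligner, while the submitters' processing notes name HISAT2 2.1.0; both give the rat build rn6. Counting used featureCounts over exons of Ensembl genes, with multi-mapping fragments included and no strand option named, so near-identical and overlapping antisense genes cannot be told apart.

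From these counts, edgeR 4.0.16 (TMM, filterByExpr, quasi-likelihood test) and DESeq2 1.42.0 (Wald test) were fitted in R 4.3.3, on 8 libraries for each line's pH comparison and on all 16 for the others. Printed log2 values, standard errors and adjusted p are edgeR's. FPM came from edgeR with TMM. Scripts were tested on simulated data. Members and lists were chosen with earlier results of these data known. Named genes were the members, the 3 called genes with the largest rise and fall in each list (at least 1 FPM), of which some are printed, the 2 most similar genes and the top marker; others given for markers, interaction or lines were chosen after their values were seen. Alternatives were other scalings, no filter, each tool alone, a threshold of 0.05, the second number, and each library left out. Slc17a1, Sox4, Timd4 and Pecam1 were not analysed here. A gene selected by the rule is not reported here. No pair of libraries in a group agreed within sampling noise (smallest chi-square per degree of freedom 6.12).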

Additional observations from a re-analysis of the deposited data

Results flagged for a closer look

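In 3 of 29 sets of 4 libraries, 1 library stood far from the rest; chance gives about 1 in 20 sets, or 1.45 of 29. Lrp2 had 0.0470 FPM in replicate 4 of NRK-52E at pH 6.0 and 0.0505 FPM in replicate 2 of NRK-49F at pH 7.4, each a single count beside 3 libraries at 0. Any count stands apart from libraries without one, so the chance rate does not hold for these sets and no excess can be read from the number found. Clu was lowest in replicate 2 of NRK-52E at pH 7.4, at 658 FPM.

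The pH effects of the lines, NRK-52E minus NRK-49F, differed for Aqp1 (log2 value -1.33), Lcn2 (1.30) and Spp1 (-1.67), and for Vcam1 with an edgeR adjusted p of 0.000362. The Vcam1 value rests on a group without a count, NRK-52E at pH 6.0, and the gene did not pass the filter in NRK-52E alone.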

How the results depend on the processing

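Of 872 values under other settings, 815 kept their direction and their side of the threshold, as did 817 of 848 with 1 library left out. Library totals alone shifted the median log2 difference of all genes in NRK-52E to -0.21; Aqp1 (-0.60), Spp1 (-0.95) and Clu (-0.57) were then called in NRK-52E, Aqp1 was called between the lines at pH 7.4 (1.03), and the difference between the effects for Clu turned to -0.067 without a call. With DESeq2 alone, Spp1 (-0.75) and Clu (-0.36) in NRK-52E, Aqp1 in NRK-49F (0.92) and Aqp1 between the lines at pH 7.4 (0.75) were called. A threshold of 0.05 added Spp1 (-0.75) and Clu (-0.36) in NRK-52E and Aqp1 in NRK-49F (0.92); the line comparisons were not part of that setting, and there Aqp1 had an adjusted p below 0.05 in both tools at pH 7.4 (0.65) and pH 6.0 (-0.68). Putting all 16 libraries in 1 fit added Spp1 (-0.76) in NRK-52E and Aqp1 (0.92) in NRK-49F, no filter added Clu (-0.39) in NRK-52E and Aqp1 (0.93) in NRK-49F, and the second number as a covariate added Clu (-0.38) in NRK-52E. Among libraries numbered 21, 2 against 2, Aqp1 (-0.69) and Spp1 (-1.01) in NRK-52E and Aqp1 in NRK-49F (1.53) were called. Clu in NRK-49F (-0.49) was not, and 1980 genes were called in NRK-49F. Among those numbered 22, 2820 were called in NRK-52E, and Lcn2 (-1.76) and Spp1 (-0.45) were not. These fits hold fewer libraries; for the other settings the cause was not tested. The no-filter value of Slc34a1 in NRK-49F was -0.10, beside 0.00 for the difference in log2(FPM + 1). Permutation tests with a pseudocount of 0.1 or library totals were chosen after seeing the data; library totals took Spp1 in NRK-52E past 0.05.

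With 1 library left out, values ran as follows where a call or a sign changed. In NRK-52E, Cubn ran from -0.035 to 0.43, Spp1 from -0.94 to -0.56 and Clu from -0.43 to -0.30. In NRK-49F, Cubn ran from -1.31 to -0.66, Aqp1 from 0.56 to 1.10 and Clu from -0.64 to -0.48. The difference between the effects ran from 0.84 to 1.60 for Cubn and from -1.52 to -0.97 for Aqp1. Between the lines, Aqp1 ran from 0.54 to 0.78 at pH 7.4 and from -0.86 to -0.32 at pH 6.0. No paired analysis was possible because the replicate numbers follow sample order and pair no libraries; the second number, whose meaning is unknown, was fitted as a covariate instead, and Clu in NRK-52E (-0.38) was then called. Depth limits Lrp2, Slc34a1, Havcr1 and, in NRK-52E, Vcam1.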

Other observations

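Markers of the distal nephron and collecting duct were low in NRK-52E and lower still at pH 6.0. Of 13 genes 6 were tested, 4 fell and none was called higher, beside calls in 56.7% of all tested genes, and their summed level went from 13.7 ± 1.01 to 3.20 ± 0.689 FPM (SD, n = 4). Trpm6, a magnesium channel with the highest mean FPM of them in this line at pH 7.4, fell by 3.07 on the log2 scale (SE 0.37, edgeR adjusted p = 2.96e-05). The water channel gene Aqp3 fell by 2.84 (SE 0.33, edgeR adjusted p = 2.17e-05). Umod and Foxi1 had no count in the line. In NRK-49F, where Scnn1a had the highest FPM, 7.43 FPM at pH 7.4, 3 were tested and the summed level was 10.9 and 8.72 FPM.

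Of 6 endothelial markers, Tek had the highest FPM in NRK-52E at 41.1 FPM at pH 7.4 against 7.02 FPM at pH 6.0, and Vwf in NRK-49F at 7.01 and 2.78 FPM; Kdr and Emcn had no count. Of 8 leukocyte markers, Cd14 had the highest FPM in both lines at pH 7.4, with 81.2 FPM in NRK-52E and 279 FPM in NRK-49F, where Cd68 was above it at pH 6.0 (243 against 129 FPM), and Ptprc and Adgre1 had no count.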
